A study of Homo sapiens with 6 samples.

Results

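The genes described here are 43 regulators of the cell cycle and of transcription: the cyclins, the cyclin-dependent kinases (CDKs) they activate, the inhibitors of those kinases, and the CKS, CDC25, WEE1 and PKMYT1 proteins that tune CDK activity. They were taken by gene symbol from the 62703 genes of the deposited count table, and all 43 were found. The RNA came from A549, a widely used human lung adenocarcinoma cell line, kept in 1 of 2 hydrogels that the labels call S-AlgLung and AlgLung. The labels do not spell out the S, and the title of the series speaks of matrix sulfation, cancer stemness and invasiveness. There were 3 libraries of cells in S-AlgLung and 3 of cells in AlgLung, and no other treatment, genotype or time separates the groups in the labels. The cells are 1 line of 1 donor tumour, and no label says whether each replicate was a culture of its own, so the p-values rest on the spread from library to library alone, and that spread may be technical.

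The 6 libraries held between 22978408 counts (AlgLung replicate 2) and 26495444 counts (S-AlgLung replicate 2). Levels are given as CPM, counts brought to a common library size by the trimmed mean of M values (TMM). Of 5 epithelial markers none was called, and the keratins were abundant in every library: KRT8 had 5022, 7551 and 2801 CPM in S-AlgLung replicates 1, 2 and 3, and 6169, 8279 and 7606 CPM in AlgLung replicates 1, 2 and 3. EPCAM was scarce, with 2.99, 3.08 and 5.40 CPM in S-AlgLung and 2.34, 1.53 and 1.99 CPM in AlgLung (log2 fold change 0.97, edgeR adjusted p = 0.07285), and CDH1 had a log2 fold change of 0.33. Among the scarcest of the immune, fibroblast and endothelial markers, PTPRC had 5 counts over all 6 libraries, CD3E 2, DCN 1 and KDR 1. Other fibroblast and endothelial markers were detected: COL3A1 had 648 counts, COL1A1 440, PECAM1 274 and CDH5 177. PECAM1 was higher in every S-AlgLung library than in any AlgLung library (log2 fold change 0.79, edgeR adjusted p = 0.2282). The summed level of 6 fibroblast markers was 7.22 to 9.27 CPM in S-AlgLung and 7.62 to 8.05 CPM in AlgLung, and that of 4 endothelial markers was 3.04 to 3.77 CPM in S-AlgLung and 2.34 to 3.68 CPM in AlgLung, with no gene of either list called. Of 4 immune markers, CD14 and CD68 were called higher, for a sum of 186 to 237 CPM in S-AlgLung and 88.1 to 131 CPM in AlgLung, but CD68, the larger of them, shares 81.6% of its exon bases with a gene on the same strand, so its counts are uncertain. S-AlgLung replicate 3 stood apart. Its chi-square per degree of freedom against S-AlgLung replicates 1 and 2 was 123.14 and 109.13, against 38.93 between those replicates and 18.16 to 56.24 between AlgLung libraries. It had the lowest KRT8, KRT18 and KRT19 of all 6 libraries and the highest nuclear RNAs. MALAT1 had 13.2, 8.11 and 49.2 CPM in the S-AlgLung libraries and 10.96, 8.90 and 10.1 CPM in the AlgLung libraries (called higher, edgeR adjusted p = 0.04748). Calls and directions that changed without that library are given with and without it.

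A cyclin is a regulatory protein that binds a CDK and switches on its kinase activity. Cyclins of the cell cycle accumulate and are destroyed in turn: D-type cyclins with CDK4 and CDK6 and E-type cyclins with CDK2 act in G1 and at entry into S phase, cyclin A acts in S and G2, and B-type cyclins with CDK1 drive mitosis. The E-, A- and B-type cyclins are made under the control of E2F factors, the retinoblastoma proteins and the DREAM, MYBL2 and FOXM1 complexes. They are degraded by the SCF and APC/C ubiquitin ligases. A second family of cyclins and CDKs works on RNA polymerase II and on splicing through the whole cycle: cyclin H with CDK7 in TFIIH, cyclin C with CDK8 in the Mediator kinase module, cyclins T1 and T2 with CDK9 in the elongation factor P-TEFb, cyclin K with CDK12 and CDK13, and cyclins L1 and L2 with the CDK11 kinases at the spliceosome.

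In S-AlgLung the cyclins of S phase, G2 and mitosis were lower than in AlgLung, and so was CDK1, their mitotic kinase, whereas no transcriptional cyclin and no transcriptional CDK passed the test in either direction. CCNA2, CCNB1, CCNB2 and CCNF were between 1.89-fold and 2.93-fold lower, and CDK1 was 2.22-fold lower. Of the 43 genes, 42 had enough counts to be tested and 5 of these 42 (11.9%) fell, at an adjusted p under 0.05 by edgeR's quasi-likelihood test with Benjamini-Hochberg adjustment over all 18544 tested genes. Over all tested genes, 1.99% were called lower, 3.15% were called higher and 5.14% were called in either direction. Without S-AlgLung replicate 3, 8 of the genes were called lower, CCNE1, CKS2 and CDKN3 being added. Of the 5, 4 (CCNA2, CCNB1, CCNB2 and CDK1) were at least 2-fold lower, as were 1.6% of all tested genes. None of the 42 was called higher by edgeR, DESeq2 or limma-voom, and at an unadjusted p under 0.05 edgeR placed 10 lower and 2 higher. Of all 18544 tested genes, the same threshold placed 1078 lower and 1687 higher. The 3 S-AlgLung values did not overlap the 3 AlgLung values for 13 of the 42 genes (31%), against 18.4% of all tested genes. The median log2 fold change was -0.10 over the 42 genes and 0.03 over all tested genes. These are bulk libraries, in which fewer cells in a phase of the cycle and less RNA of a gene per cell cannot be told apart. Of 3 markers of proliferating cells, MKI67 and TOP2A also fell. MKI67 had 7.07, 12.2 and 4.97 CPM in S-AlgLung and 37.1, 22.3 and 28.4 CPM in AlgLung (log2 fold change -1.86, edgeR adjusted p = 3.917e-05), TOP2A had a log2 fold change of -2.13, and PCNA one of -0.69 that missed the threshold (adjusted p = 0.05415). The part of the number of cycling cells in the results was not tested.

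**Figure D1:**
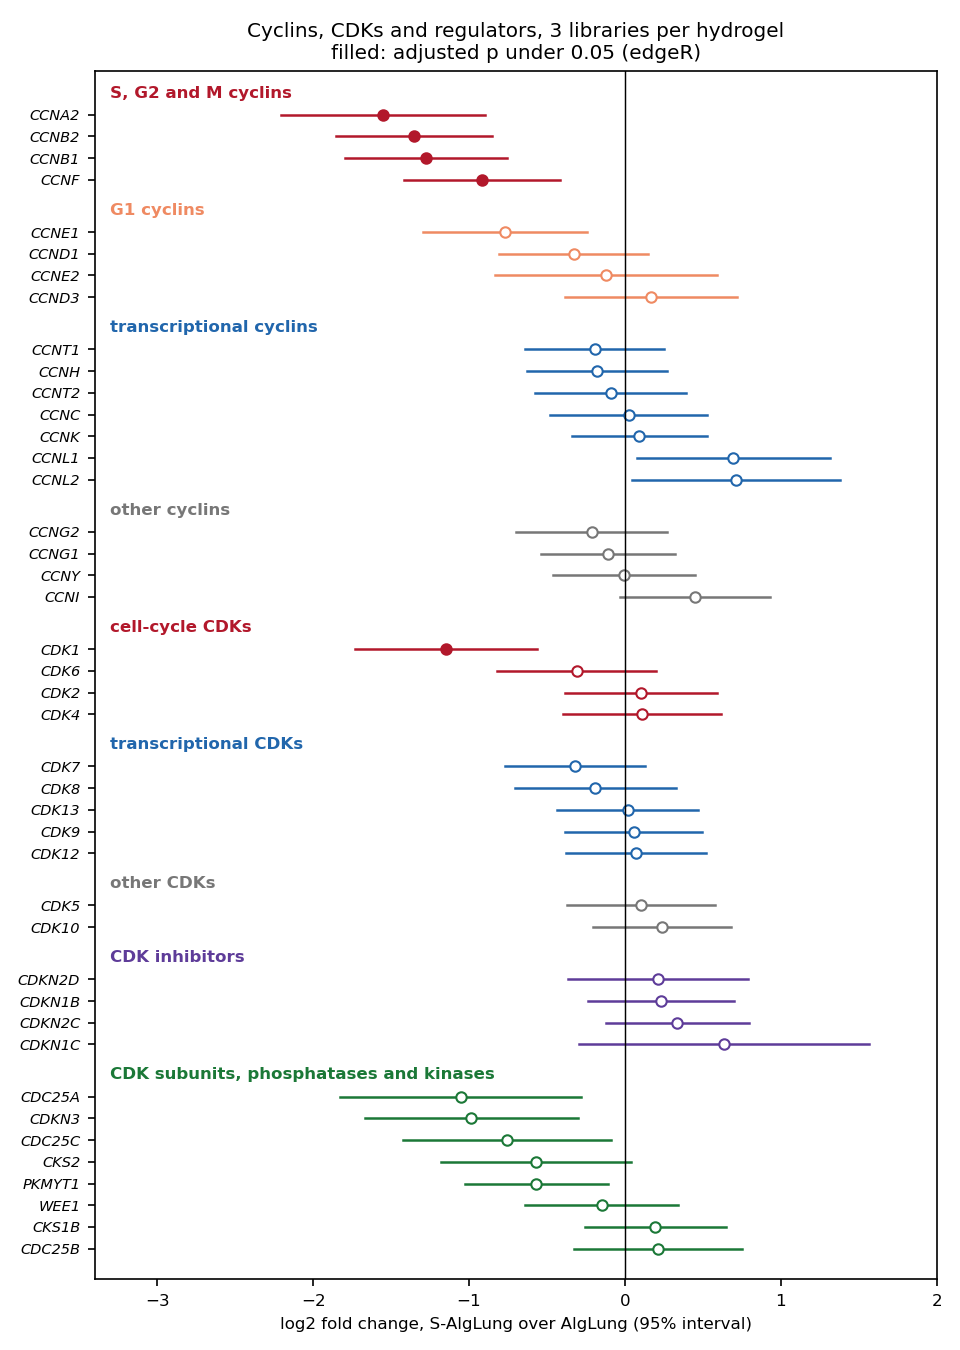
Log2 fold change of each of the 42 tested genes, S-AlgLung over AlgLung, with its 95% interval (x axis), grouped by role and ordered by size within each role (y axis). Filled points passed an adjusted p under 0.05; they are CCNA2, CCNB1, CCNB2, CCNF and CDK1, all below 0, while the 7 transcriptional cyclins and the 5 transcriptional CDKs are open.

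CCNA2 (ENSG00000145386; GRCh38 chromosome 4, 121816444 to 121823883, minus strand) encodes cyclin A2, which partners CDK2 in S phase and CDK1 in G2. Its level was 1.04, 1.65 and 1.35 CPM in S-AlgLung replicates 1, 2 and 3, and 4.91, 2.79 and 4.18 CPM in AlgLung replicates 1, 2 and 3. All S-AlgLung libraries lay below all AlgLung libraries, with means of 1.35 ± 0.302 CPM and 3.96 ± 1.08 CPM (SD, n = 3 each). The log2 fold change was -1.55 with a standard error of 0.32 (edgeR adjusted p = 0.00222), which made it the most strongly lowered of the 42 genes. Exons of CCNA2 overlap EXOSC9 on the other strand. EXOSC9 held 180.1% as many counts as CCNA2, with a log2 fold change of -0.54 (edgeR adjusted p = 0.3126), and the sources used here do not give the strand setting of the counting.

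CCNB1 and CCNB2 encode the B-type cyclins, the activating subunits of CDK1 in mitosis. CCNB1 is ENSG00000134057 (chromosome 5, 69167135 to 69178245, plus strand), and CCNB2 is ENSG00000157456 (chromosome 15, 59105126 to 59125045, plus strand). CCNB1 had 3.58, 7.85 and 6.04 CPM in the S-AlgLung libraries and 12.8, 13.7 and 15.9 CPM in the AlgLung libraries. Its groups did not overlap, although the S-AlgLung values spread over a wider ratio than the AlgLung values, and its log2 fold change was -1.28 (standard error 0.26, edgeR adjusted p = 0.00163). CCNB2 had 3.08, 3.76 and 3.70 CPM in S-AlgLung and 9.35, 8.54 and 9.11 CPM in AlgLung. The libraries of each hydrogel lay close together, at 3.51 ± 0.373 CPM in S-AlgLung and 9.001 ± 0.415 CPM in AlgLung (SD, n = 3 each), and the log2 fold change of -1.35 (95% interval -1.86 to -0.85) had the smallest adjusted p of the 42 genes, 0.0005406 by edgeR.

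CCNF (ENSG00000162063; chromosome 16, 2429394 to 2458854, plus strand) encodes cyclin F, which binds no CDK and serves as the substrate-binding F-box subunit of an SCF ubiquitin ligase in S and G2. It had 5.53, 4.05 and 4.94 CPM in S-AlgLung and 8.01, 10.9 and 8.49 CPM in AlgLung, again without overlap. The log2 fold change was -0.92 (standard error 0.24, edgeR adjusted p = 0.0218). It missed the threshold without S-AlgLung replicate 2 (log2 fold change -0.81, adjusted p = 0.08236) and without AlgLung replicate 2 (-0.77, adjusted p = 0.1321).

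CDK1 (ENSG00000170312; chromosome 10, 60778331 to 60794852, plus strand), the kinase of the A- and B-type cyclins, had 1.86, 3.46 and 2.35 CPM in S-AlgLung and 6.78, 4.81 and 5.42 CPM in AlgLung. The highest S-AlgLung library stayed below the lowest AlgLung library, and the log2 fold change was -1.15 (standard error 0.29, edgeR adjusted p = 0.0123). The call was lost without S-AlgLung replicate 1 (log2 fold change -0.97, adjusted p = 0.09972) and without AlgLung replicate 1 (-1.04, adjusted p = 0.08107). Among the S-AlgLung libraries, CCNA2, CCNB1, CCNB2 and CDK1 shared an order, lowest in replicate 1 and highest in replicate 2, while CCNF had the opposite order at both ends.

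**Figure D2:**
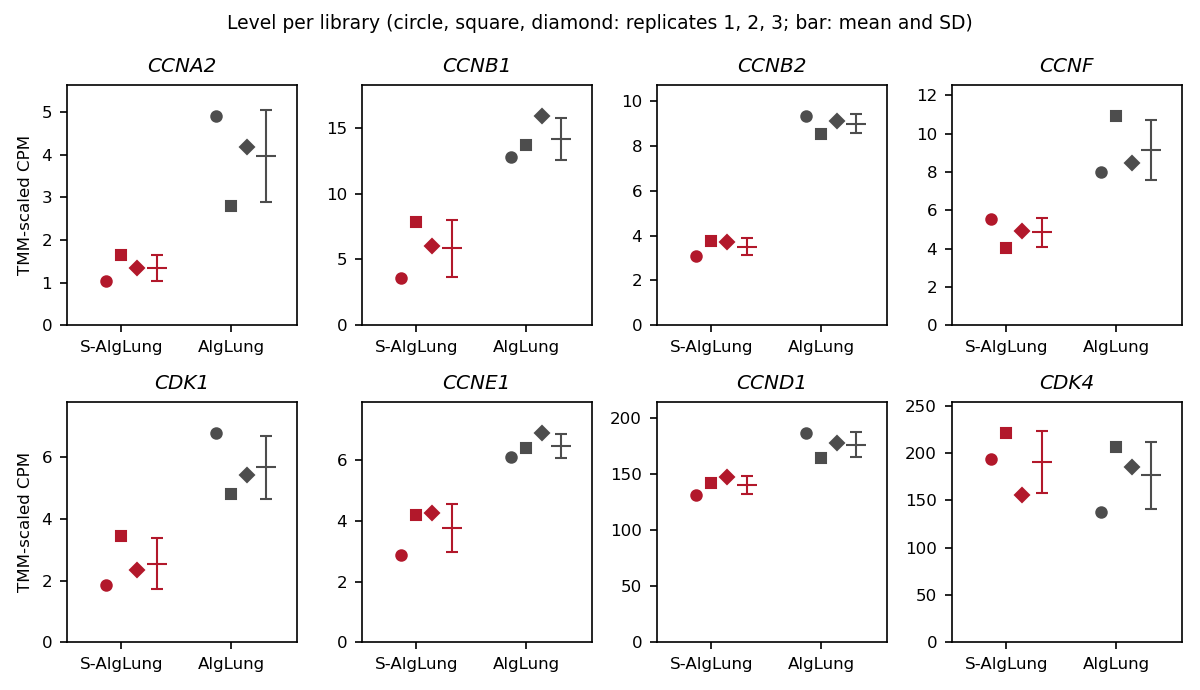
TMM-scaled CPM (y axis, from 0) of 8 genes in each library, S-AlgLung left and AlgLung right; the circle, square and diamond are replicates 1, 2 and 3, and the bars give the mean and SD. The groups of CCNA2, CCNB1, CCNB2, CCNF, CDK1, CCNE1 and CCND1 do not overlap, while those of CDK4 do.

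The promoters of the 5 lowered genes are shown because cell-cycle genes of this kind are known to carry paired elements close to the start site: CCAAT boxes, bound by the factor NF-Y, and the cell-cycle genes homology region (CHR), bound by the DREAM complex at rest and by MYBL2 and FOXM1 complexes in G2. Of the 7 transcriptional cyclins, CCNC, the 1 with both elements, and CCNH, 1 of the 2 with neither, are shown beside them. The RefSeq sequences (GRCh38.p14) cover up to 250 bases before the start site and end where the deposited table places the first base of the gene if that comes earlier. Where a gene had several RefSeq starts, as CDK1 and CCNC did (2 each), only the window of the most upstream start is described. They run 5′ to 3′ along the gene's own strand, and capitals mark a match on either strand to CCAAT or to the CHR (TTTGAA or TTCGAA, as searched here). Each line gives a gene, its window and its sequence.
CCNA2, chr4:121823884-121824133, minus strand: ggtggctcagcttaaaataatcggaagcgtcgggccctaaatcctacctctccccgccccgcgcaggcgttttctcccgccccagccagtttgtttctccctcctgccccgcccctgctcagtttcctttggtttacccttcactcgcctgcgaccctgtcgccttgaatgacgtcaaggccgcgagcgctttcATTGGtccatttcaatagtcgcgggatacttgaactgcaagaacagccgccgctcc
CCNB1, chr5:69166900-69167134, plus strand: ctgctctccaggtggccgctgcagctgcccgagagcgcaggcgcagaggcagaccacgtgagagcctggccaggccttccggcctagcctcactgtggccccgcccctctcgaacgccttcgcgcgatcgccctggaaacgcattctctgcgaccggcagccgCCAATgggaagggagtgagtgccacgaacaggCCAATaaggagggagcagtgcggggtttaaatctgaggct
CCNB2, chr15:59104896-59105125, plus strand: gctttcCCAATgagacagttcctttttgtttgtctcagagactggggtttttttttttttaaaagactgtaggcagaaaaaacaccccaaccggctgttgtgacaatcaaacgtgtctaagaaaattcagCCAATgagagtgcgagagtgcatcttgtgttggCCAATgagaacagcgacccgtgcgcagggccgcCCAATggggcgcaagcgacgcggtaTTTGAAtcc
CCNF, chr16:2429197-2429393, plus strand: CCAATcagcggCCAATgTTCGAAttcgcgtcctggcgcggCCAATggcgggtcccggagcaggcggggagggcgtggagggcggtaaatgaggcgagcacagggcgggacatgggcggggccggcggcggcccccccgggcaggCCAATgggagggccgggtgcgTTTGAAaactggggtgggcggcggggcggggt
CDK1, chr10:60778081-60778330, plus strand: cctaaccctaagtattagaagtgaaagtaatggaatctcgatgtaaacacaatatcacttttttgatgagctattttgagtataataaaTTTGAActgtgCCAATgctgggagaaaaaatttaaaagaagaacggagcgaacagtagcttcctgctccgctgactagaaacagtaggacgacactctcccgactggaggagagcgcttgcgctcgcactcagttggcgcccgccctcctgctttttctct
CCNC, chr6:99568826-99569064, minus strand: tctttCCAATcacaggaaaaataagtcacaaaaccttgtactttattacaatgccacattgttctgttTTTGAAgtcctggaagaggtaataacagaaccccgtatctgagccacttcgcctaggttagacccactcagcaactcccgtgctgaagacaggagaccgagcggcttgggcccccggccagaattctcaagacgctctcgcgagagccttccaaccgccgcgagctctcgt
CCNH, chr5:87412931-87413180, minus strand: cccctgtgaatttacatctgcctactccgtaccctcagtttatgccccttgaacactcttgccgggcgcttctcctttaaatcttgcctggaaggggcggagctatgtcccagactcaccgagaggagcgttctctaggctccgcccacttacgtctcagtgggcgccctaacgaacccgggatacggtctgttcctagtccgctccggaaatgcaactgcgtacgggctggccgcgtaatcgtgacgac

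Each of the 5 lowered genes held at least 1 CCAAT in the 250 bases before its RefSeq start: 1 in CCNA2, 2 in CCNB1, 4 in CCNB2, 4 in CCNF and 1 in CDK1. The CCAAT of CCNA2 reads ATTGG on the gene's strand and begins 56 bases before the start. In CCNB2, CCAAT boxes began 120, 87 and 54 bases before the start, followed by a CHR at 29 bases, besides a CCAAT at 244 bases. CCNF held a CHR at 233 and another at 85 bases before the start, and CDK1 held one at 161 bases. Neither spelling searched, TTTGAA or TTCGAA, was present in the windows of CCNA2 and CCNB1. No other spelling of the CHR was searched, so these windows are not shown to lack one. In CCNC the CCAAT began 245 and the CHR 182 bases before the start. The E2F site, searched as TTTCCCGC, TTTCGCGC, TTTGCCGC or TTTGGCGC on both strands, was in none of these windows, and no matches of different motifs overlapped in the promoters of the 36 genes with an entry. Among those 36, 17 held CCAAT (47.2%), 7 the CHR (19.4%) and 2 the E2F site (5.56%), against 34.5%, 12.0% and 3.71% of 15842 protein-coding promoters of the same length. By class, CCAAT was present in 4 of the 4 S, G2 and M cyclin promoters and in 5 of the 7 transcriptional cyclin promoters (CCNC, CCNK, CCNL2, CCNT1 and CCNT2). The CHR, as spelled in the search, was present in 2 of the 4 and in 1 of the 7 (CCNC). At least 2 CCAAT boxes were present in 3 of the 4, in 1 of the 7 and in 11.6% of the protein-coding promoters. CKS1B, which was not called, held 5 CCAAT boxes and a CHR. None of the 5 transcriptional CDK promoters held CCAAT, the CHR or the E2F site. A match describes the letters of a promoter and is not a measured binding site.

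The G1 cyclins did not pass the test, and their levels spanned a wide range. CCNE1, the cyclin E1 that activates CDK2 at entry into S phase, had 2.86, 4.18 and 4.26 CPM in S-AlgLung and 6.09, 6.38 and 6.87 CPM in AlgLung. Its groups did not overlap, and its log2 fold change of -0.77 (95% interval -1.30 to -0.24) had an edgeR adjusted p of 0.0886. Without S-AlgLung replicate 3 it was called, with a log2 fold change of -0.90 (adjusted p = 0.01256). CCND1, the cyclin D1 that links mitogen signals to CDK4 and CDK6, had 131, 142 and 147 CPM in S-AlgLung and 186, 164 and 178 CPM in AlgLung. Its groups also did not overlap, but the difference was small, with a log2 fold change of -0.33 (95% interval -0.81 to 0.15, edgeR adjusted p = 0.584). CCND3 (log2 fold change 0.17) and CCNE2 (-0.12) had overlapping groups and intervals of -0.38 to 0.72 and -0.83 to 0.59. CCND2 had 0 counts in all 6 libraries, where a count of 0 allows up to between 0.107 and 0.136 CPM on the TMM scale, depending on the library (3 counts per library, counting error only). It shares 12.5% of its exon bases with a gene on the same strand that had 1254 counts, so reads from the shared bases may be missing from its count.

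Among the other cell-cycle kinases, those of G1 and S phase, none passed the test. CDK4 had 194, 221 and 156 CPM in S-AlgLung and 138, 206 and 186 CPM in AlgLung, so its groups overlapped and its log2 fold change was 0.11 (95% interval -0.40 to 0.62, edgeR adjusted p = 0.915). CDK6, the other partner of the D-type cyclins, had 10.8, 8.49 and 7.92 CPM in S-AlgLung and 14.7, 7.24 and 11.7 CPM in AlgLung, with a log2 fold change of -0.31 (-0.82 to 0.20, adjusted p = 0.657). CDK2, the partner of cyclins E and A, had 9.61, 8.91 and 15.4 CPM in S-AlgLung and 9.62, 11.3 and 10.7 CPM in AlgLung, with a log2 fold change of 0.10 (-0.38 to 0.59, adjusted p = 0.916). Its highest value is S-AlgLung replicate 3, without which the log2 fold change was -0.22 (adjusted p = 0.6268). The difference between CDK1 and the other 3 kinases was not itself tested.

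Set by class, 4 of the 8 tested cell-cycle cyclins (S, G2, M and G1 together) were called lower and 0 higher, and their median log2 fold change was -0.84. Of the 7 transcriptional cyclins 0 were called lower and 0 higher by edgeR, DESeq2 and limma-voom, 0 were lower and 2 higher at an unadjusted p under 0.05 in edgeR, and the median was 0.02. The groups did not overlap for 6 of the 8 cell-cycle cyclins and for 0 of the 7 transcriptional cyclins. Of all tested genes, 18.4% had groups that did not overlap, 1.99% were called lower and 3.15% were called higher. At an unadjusted p under 0.05 in edgeR, 1078 of the 18544 were lower and 1687 higher. Beside these shares, 0 of 7 says little about the transcriptional cyclins as a class. The median of the cell-cycle cyclins stayed between -0.96 and -0.78 when each library in turn was left out, and that of the transcriptional cyclins between -0.19 and 0.05. No test between the 2 classes was made. Exons of 9 tested genes (CCNA2, CCNC, CCNE2, CCNH, CCNK, CDK2, CDK4, CDC25C and PKMYT1) overlap a gene on the other strand with at least 25% as many counts, so their counts are uncertain. The overlapping gene held several times as many counts as CCNE2 (INTS8, 993.7%) and CDC25C (FAM53C, 1584.7%).

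**Figure D3:**
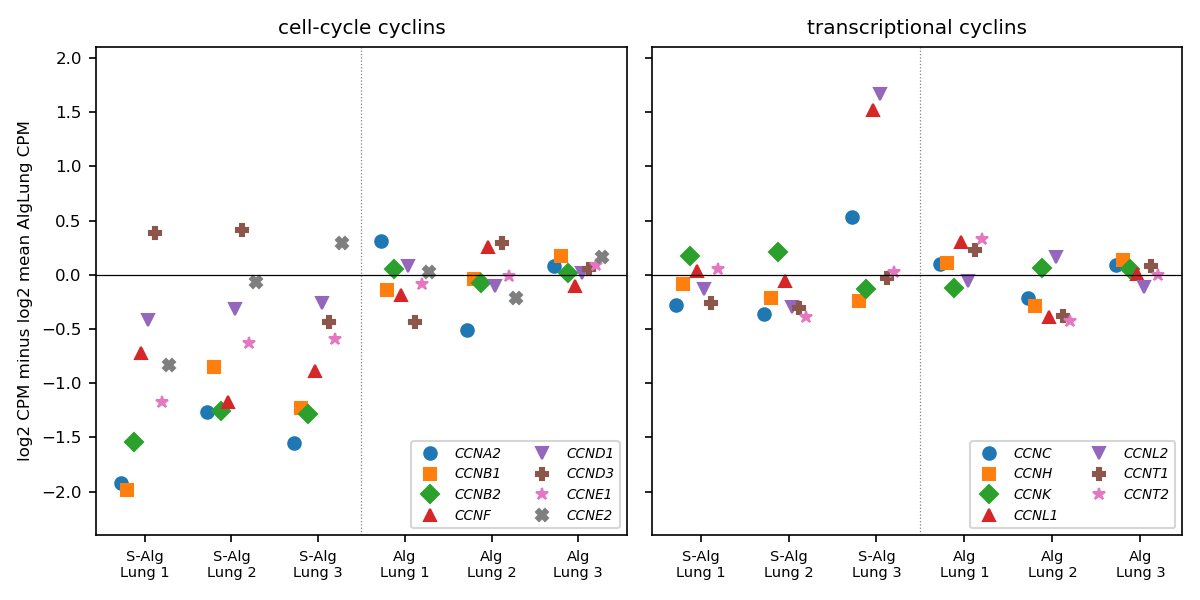
Log2 CPM of each cyclin in each library minus the log2 of its AlgLung mean (y axis), for the tested cell-cycle cyclins (left) and the transcriptional cyclins (right), with the 3 S-AlgLung libraries left of the 3 AlgLung libraries on each x axis. CCNA2, CCNB1, CCNB2 and CCNF lie below 0 in all 3 S-AlgLung libraries, and CCNL1 and CCNL2 stand above the other transcriptional cyclins in S-AlgLung replicate 3 only.

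Among the transcriptional cyclins the widest differences were those of CCNL1 and CCNL2, and both rested on 1 library. CCNL1, encoding the splicing cyclin L1, had 10.3, 9.63 and 28.8 CPM in S-AlgLung and 12.3, 7.69 and 10.1 CPM in AlgLung. CCNL2, encoding cyclin L2, had 13.9, 12.3 and 48.3 CPM in S-AlgLung and 14.6, 17.0 and 14.03 CPM in AlgLung. In both genes the high value is S-AlgLung replicate 3. The other S-AlgLung libraries lie within the AlgLung range for CCNL1 and just below it for CCNL2. The log2 fold changes were 0.70 for CCNL1 (edgeR adjusted p = 0.254) and 0.71 for CCNL2 (adjusted p = 0.289). Without S-AlgLung replicate 3 the values were -0.05 for CCNL1 (adjusted p = 0.9328) and -0.25 for CCNL2 (adjusted p = 0.5561). Leaving out S-AlgLung replicate 2 instead gave calls for both, at 0.96 for CCNL1 (adjusted p = 0.01813) and 1.03 for CCNL2 (adjusted p = 0.009071). The same library was the one high in the nuclear RNAs: NEAT1 had 62.5, 36.4 and 192 CPM in S-AlgLung and 55.8, 52.0 and 49.1 CPM in AlgLung. Its part in the cyclin L values was not tested.

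The other 5 transcriptional cyclins had log2 fold changes between -0.19 and 0.09. CCNK, the partner of CDK12 and CDK13, had 49.2, 50.4 and 39.9 CPM in S-AlgLung and 40.1, 45.4 and 45.2 CPM in AlgLung, with a log2 fold change of 0.09 (95% interval -0.34 to 0.53, edgeR adjusted p = 0.915). CCNT1, the cyclin T1 of P-TEFb, had 24.8, 23.9 and 28.96 CPM in S-AlgLung and 34.8, 22.7 and 31.4 CPM in AlgLung (log2 fold change -0.19, -0.64 to 0.25, adjusted p = 0.778). CCNT2 (-0.09), CCNH (-0.18) and CCNC (0.02) likewise had overlapping groups, and the sign for CCNC and CCNK turned with scaling by total counts only. Without S-AlgLung replicate 3 the log2 fold change of CCNC was -0.36 (adjusted p = 0.381).

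The transcriptional CDKs had log2 fold changes between -0.32 and 0.07, and none passed the test. CDK7, the TFIIH kinase that also phosphorylates and activates other CDKs, had 11.1, 10.1 and 11.9 CPM in S-AlgLung and 12.2, 13.1 and 16.0 CPM in AlgLung. It was the 1 transcriptional CDK whose groups did not overlap, and its log2 fold change was -0.32 (95% interval -0.77 to 0.13, edgeR adjusted p = 0.571). CDK8, the Mediator kinase, had 6.66, 4.94 and 8.60 CPM in S-AlgLung and 8.09, 6.16 and 8.82 CPM in AlgLung, with a log2 fold change of -0.19 (-0.70 to 0.33). CDK9, the P-TEFb kinase that releases paused RNA polymerase II, had 55.4, 55.6 and 49.2 CPM in S-AlgLung and 48.2, 58.3 and 47.6 CPM in AlgLung (0.06, -0.38 to 0.49, adjusted p = 0.956). CDK12 and CDK13, which phosphorylate the polymerase during elongation, had log2 fold changes of 0.07 and 0.02, and these signs and that of CDK9 turned with scaling by total counts only. Without S-AlgLung replicate 3 that of CDK13 was -0.0527. Over the 12 transcriptional cyclins and CDKs together, 0 were called by edgeR, DESeq2 or limma-voom, and 2 (CCNL1 and CCNL2) passed an unadjusted p under 0.05 in edgeR. Of all 18544 tested genes edgeR called 5.14%, and the unadjusted threshold placed 1078 lower and 1687 higher. Beside these shares, 0 of 12 says little about the transcriptional cyclins and CDKs as a class. Of the 12, 1 had groups that did not overlap (8.33%, against 18.4% of all tested genes).

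Of the cyclins and CDKs outside both classes, none was called. CCNI, an atypical cyclin best known from cells that have left the cycle, had 127, 142 and 174 CPM in S-AlgLung and 110.1, 99.4 and 115 CPM in AlgLung. Every S-AlgLung library was above every AlgLung library, with a log2 fold change of 0.45 (95% interval -0.03 to 0.93, edgeR adjusted p = 0.383). CCNG2, a cyclin linked to cell-cycle arrest, had 18.5, 11.2 and 18.9 CPM in S-AlgLung and 21.3, 14.5 and 20.6 CPM in AlgLung (-0.21, -0.70 to 0.27). CCNG1, a p53 target, had a log2 fold change of -0.11, and CCNY, a membrane-bound cyclin, had 48.5, 39.8 and 62.8 CPM in S-AlgLung and 52.9, 47.9 and 50.7 CPM in AlgLung. CDK10, the kinase of cyclin M, had 55.3, 42.1 and 43.0 CPM in S-AlgLung and 39.9, 43.7 and 35.5 CPM in AlgLung (0.24, -0.20 to 0.68), and CDK5, best known from neurons, had a log2 fold change of 0.10 (-0.37 to 0.58) that turned to -0.0193 with scaling by total counts only.

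The 4 inhibitor genes of the group had positive log2 fold changes, between 0.21 and 0.64, and none was called by edgeR, DESeq2 or limma-voom or passed an unadjusted p under 0.05 in edgeR. CDKN1C, which encodes the p57 inhibitor, was scarce, with 0.816, 1.18 and 0.497 CPM in S-AlgLung and 0.383, 0.719 and 0.497 CPM in AlgLung. It had 98 counts over the 6 libraries, its groups overlapped, and its log2 fold change of 0.64 had a 95% interval of -0.29 to 1.57. CDKN2C, encoding the CDK4 and CDK6 inhibitor p18, had 20.2, 23.9 and 34.9 CPM in S-AlgLung and 20.01, 21.7 and 20.9 CPM in AlgLung (0.34, -0.12 to 0.79, edgeR adjusted p = 0.549), with its highest value in S-AlgLung replicate 3, without which it was 0.0495. CDKN1B, encoding p27, which holds cyclin E and A complexes inactive, had 44.0, 41.2 and 66.8 CPM in S-AlgLung and 49.1, 37.0 and 43.3 CPM in AlgLung. Its log2 fold change was 0.23 (adjusted p = 0.739), again with the highest value in S-AlgLung replicate 3, without which it was -0.0511. The log2 fold change of CDKN2D, encoding p19, was 0.21.

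The 8 CKS subunits, phosphatases and kinases had a median log2 fold change of -0.57, and none was called by edgeR, DESeq2 or limma-voom. At an unadjusted p under 0.05 in edgeR 4 were lower and 0 higher, where 1078 of all 18544 tested genes were lower and 1687 higher. CDC25A, the phosphatase that activates CDK2 and CDK1 from G1 onward, had 1.18, 0.549 and 0.853 CPM in S-AlgLung and 1.61, 1.84 and 1.90 CPM in AlgLung. Its groups did not overlap, with a log2 fold change of -1.05 (95% interval -1.82 to -0.28, edgeR adjusted p = 0.125). CDKN3, a phosphatase that removes the activating phosphate of CDKs, had 1.09, 1.10 and 1.46 CPM in S-AlgLung and 2.91, 1.98 and 2.36 CPM in AlgLung. Its log2 fold change was -0.99 (-1.67 to -0.30, adjusted p = 0.0951) and it was called without S-AlgLung replicate 3 (-1.18, adjusted p = 0.02091).

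CDC25C, the phosphatase that triggers CDK1 at mitosis, had 1.18, 1.605 and 1.49 CPM in S-AlgLung and 2.11, 2.16 and 2.98 CPM in AlgLung, without overlap (log2 fold change -0.76, edgeR adjusted p = 0.249). PKMYT1, a membrane-bound kinase that holds CDK1 inactive, had 17.5, 14.6 and 11.1 CPM in S-AlgLung and 20.5, 24.2 and 19.2 CPM in AlgLung, also without overlap (-0.57, adjusted p = 0.188). WEE1, the nuclear kinase with the same role, had overlapping groups and a log2 fold change of -0.15. CDC25B, the phosphatase that starts CDK1 activation at the centrosome, had 497, 414 and 273 CPM in S-AlgLung and 304, 389 and 330.2 CPM in AlgLung, so that the highest and the lowest value both came from S-AlgLung (0.21, 95% interval -0.33 to 0.75).

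The CKS proteins are small adaptors that help CDKs bind phosphorylated substrates. CKS2 had 2.81, 4.602 and 9.42 CPM in S-AlgLung and 8.70, 7.82 and 8.61 CPM in AlgLung: S-AlgLung replicates 1 and 2 were below every AlgLung library and S-AlgLung replicate 3 was above them all. Its log2 fold change was -0.57 (95% interval -1.18 to 0.04, edgeR adjusted p = 0.387), but -1.20 (adjusted p = 0.000133) with S-AlgLung replicate 3 left out. CKS1B had 21.2, 33.4 and 32.6 CPM in S-AlgLung and 22.0, 27.8 and 26.4 CPM in AlgLung, with a log2 fold change of 0.20 (-0.26 to 0.65).

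Levels per kilobase of exon allow only a rough comparison between genes. The exon length is that of the deposited table and need not be the length of the transcripts expressed. CDK4 also shares 44.2% of its exon bases with TSPAN31 on the other strand. On that scale CDC25B was the most abundant of the 42 genes, at 101 ± 28.99 CPM per kilobase in S-AlgLung and 87.3 ± 11.2 in AlgLung (SD, n = 3 each), followed by CDK4 at 61.6 ± 10.6 in S-AlgLung and 57.1 ± 11.4 in AlgLung. CCND3 (45.9 ± 13.6 in S-AlgLung, 40.8 ± 9.93 in AlgLung) and CCND1 (29.4 ± 1.68 in S-AlgLung, 36.9 ± 2.37 in AlgLung) came next in AlgLung, their SDs overlapping there. CCNB1 had 2.39 ± 0.881 CPM per kilobase in S-AlgLung and 5.81 ± 0.653 in AlgLung, CCNB2 1.28 in S-AlgLung and 3.27 in AlgLung, and CDK1 0.654 ± 0.210 in S-AlgLung and 1.45 ± 0.258 in AlgLung. CCNA2 had 0.490 ± 0.110 CPM per kilobase in S-AlgLung and 1.44 ± 0.392 in AlgLung. The called genes were thus of middle or low level, below CDK9 (17.8 ± 1.21 CPM per kilobase in S-AlgLung, 17.1 ± 1.99 in AlgLung), and CDKN1C was the least abundant tested gene in AlgLung, at 0.335 CPM per kilobase in S-AlgLung and 0.215 in AlgLung.

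**Figure D4:**
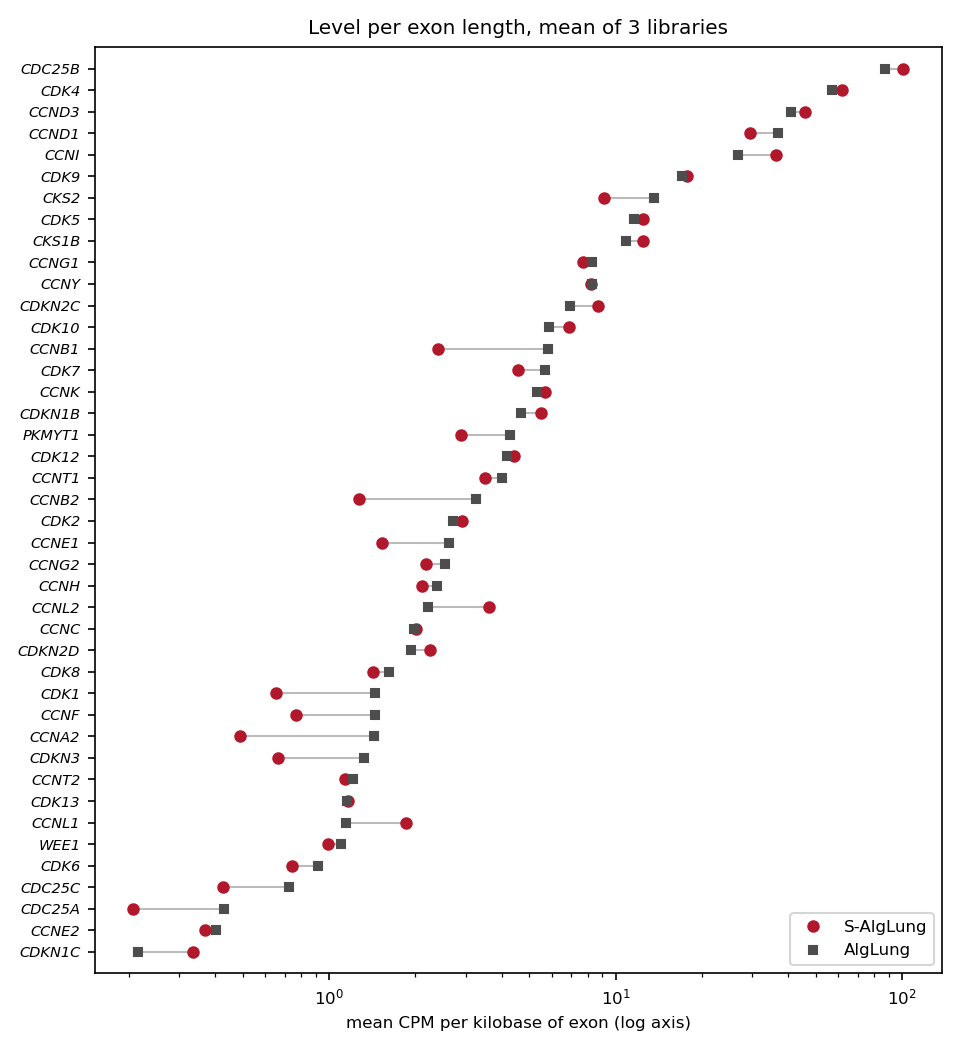
Mean CPM per kilobase of exon (x axis, log scale) of the 42 tested genes in S-AlgLung and in AlgLung (3 libraries each), ordered by the AlgLung level (y axis). CDC25B and CDK4 are at the top, and the horizontal gaps of CCNA2, CCNB1, CCNB2, CCNF and CDK1 place S-AlgLung below AlgLung.

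Regulators that act on cyclin genes were among the lowered genes too. Of 19 genes of the retinoblastoma, E2F and DREAM system, 7 were called lower (36.8%) and 0 higher, where 1.99% of all tested genes were called lower and 3.15% higher, and the median of the list was -0.33 on the log2 scale. Without S-AlgLung replicate 3, 1 gene of the list was called higher, LIN37 (0.77, edgeR adjusted p = 0.005508), whose exons are shared with a gene on the same strand. FOXM1, the activator of mitotic genes, had 9.97, 9.42 and 7.14 CPM in S-AlgLung and 25.9, 32.7 and 29.02 CPM in AlgLung (log2 fold change -1.73, edgeR adjusted p = 8.388e-06), while the overlapping ITFG2 on the other strand held 90.8% as many counts. MYBL2, the S-phase partner of the MuvB complex, had 6.44, 8.32 and 2.74 CPM in S-AlgLung and 19.2, 25.2 and 19.1 CPM in AlgLung (-1.87, adjusted p = 6.442e-05). E2F1, an activator of S-phase genes, had 5.94, 5.40 and 2.24 CPM in S-AlgLung and 12.3, 13.3 and 12.3 CPM in AlgLung (-1.49, adjusted p = 0.0007963). In all of these genes every S-AlgLung library lay below every AlgLung library. E2F7, a repressor of the family with 90 counts in all, had 0.136, 0.253 and 0.213 CPM in S-AlgLung and 1.80, 0.540 and 0.662 CPM in AlgLung (-2.29, adjusted p = 0.00832), and it lost its call without S-AlgLung replicate 1 (adjusted p = 0.07584) or AlgLung replicate 1 (adjusted p = 0.2057). The other lowered genes of the list were RBL1 (-0.89, called in 8 of 14 alternatives), E2F2 (-1.52, called in 13 of 14) and E2F8 (-2.002, called in 7 of the 13 that tested it). E2F8 was not called by DESeq2 (adjusted p = 0.07687) or without S-AlgLung replicate 3 (adjusted p = 0.08991). The count of lowered genes was 4 without AlgLung replicate 1 or without AlgLung replicate 2.

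Of 17 genes that take part in or regulate the degradation of cyclins and CDK inhibitors, 2 were called lower (11.8%) and 0 higher, where 1.99% of all tested genes were called lower and 3.15% higher. Both act with APC/C in mitosis, but UBE2S, FZR1, CDC27, CDC16, CDC23, ANAPC1, ANAPC10 and ANAPC11, also of APC/C, were not called. CDC20, the mitotic activator of APC/C, had 3.13, 4.90 and 1.74 CPM in S-AlgLung and 10.7, 17.4 and 14.9 CPM in AlgLung (log2 fold change -2.15, edgeR adjusted p = 1.687e-05). UBE2C, a ubiquitin-conjugating enzyme of APC/C, had 4.04, 3.29 and 2.17 CPM in S-AlgLung and 10.6, 14.9 and 13.2 CPM in AlgLung (-2.03, adjusted p = 8.119e-06). SKP2, the F-box protein that targets p27, had a log2 fold change of -0.77 (adjusted p = 0.102), called without S-AlgLung replicate 3 (-1.14, adjusted p = 0.0003441), and FBXO5, an APC/C inhibitor, had -0.59 (adjusted p = 0.432). SKP2 and FBXO5 overlap a gene on the other strand with 90.8% and 235.1% as many counts. The median of the 17 was -0.12.

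Of 13 partners of the transcriptional CDKs, among them the P-TEFb inhibitors, Mediator subunits and elongation factors, 0 were called by edgeR, and 0 had an unadjusted p under 0.05 in either direction. Over all 18544 tested genes edgeR called 5.14%, and at that unadjusted threshold 1078 were lower and 1687 higher. Beside these shares, 0 of 13 says little about the partners as a group. The median log2 fold change of the 13 was -0.11. Their smallest p-values were those of LARP7, which holds P-TEFb in an inactive particle (log2 fold change -0.40, edgeR adjusted p = 0.434), and ELL2, an elongation factor (0.33, adjusted p = 0.560). LARP7 overlaps MIR302CHG on the other strand, which held 48.8% as many counts.

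Of 3 further CDK inhibitor genes, only CDKN1A had enough counts to be tested, and it was lower in S-AlgLung. CDKN1A, encoding the p53-induced inhibitor p21, had 80.0, 87.1 and 61.6 CPM in S-AlgLung and 124, 182 and 182 CPM in AlgLung, without overlap (log2 fold change -1.09, edgeR adjusted p = 0.00498). Without AlgLung replicate 2 the log2 fold change was -1.01 and the adjusted p 0.06349. CDKN2A had 1 count and CDKN2B 0 counts in all 6 libraries and A549 is known for the deletion of CDKN2A. Of 24 further cyclins, CDKs and activators 19 were tested, and 1 rose, where 3.15% of all tested genes were called higher. The gene was CDK18, a kinase of the less studied PCTAIRE group. It had 21.1, 15.3 and 9.70 CPM in S-AlgLung and 6.48, 6.47 and 6.002 CPM in AlgLung, without overlap (log2 fold change 1.28, edgeR adjusted p = 0.00155). The median of the 19 was 0.06, and a second gene was called higher without S-AlgLung replicate 2 (CDK3, adjusted p = 0.03139) or without S-AlgLung replicate 3 (CABLES2, adjusted p = 0.03586). The next smallest p-values of that list belonged to CDK3 (0.73, adjusted p = 0.181), whose counts cannot be told apart from those of the overlapping TEN1-CDK3, CABLES2 (0.50, adjusted p = 0.312) and CDK5R2 (0.59, adjusted p = 0.398).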

How the data were processed

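RNA of A549 cells was extracted with TRIzol and a column kit, and libraries and adaptor removal were done by a provider, per the labels' protocols. The authors deposited raw counts per gene, one column a library; reads were aligned to GRCh38 with STAR 2.7.3a and counted with featureCounts, per the submitters' processing notes. The sources used here do not give the featureCounts version, its annotation or its strand setting. AlgLung replicate 1 had 2 columns with identical values (0 genes differed), counted as 1 sample. Libraries were grouped by label. The table's Ensembl gene IDs were matched to symbols in a reference gene-name table, for 42300 of 62703 genes.

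edgeR 4.0.16 in R 4.3.3 fitted all 6 libraries by the quasi-likelihood method with TMM factors, on 18544 genes kept by filterByExpr (minimum count 10). Genes were called at an adjusted p under 0.05 (Benjamini-Hochberg, all tested genes). Standard errors were derived from the F statistic. CPM, and CPM per kilobase of the table's exon length, were computed from the counts. Alternatives used DESeq2 1.42.0, limma-voom 3.58.1, other scalings and filters, the replicate block, and each library left out. The procedure was tested on simulated data.

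The genes and the lists were chosen with earlier results of these data known. Per-library values are given for the called genes among the 43, for the 1 or 2 with the widest difference in each role, and for other genes chosen after their values were seen. Of each further list the called genes and up to 4 by p are named, some by log2 fold change only. RefSeq promoters were matched by symbol for 36 of the 43 genes.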

Additional observations from a re-analysis of the deposited data

How the results depend on the processing

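CCNA2, CCNB1 and CCNB2 were called lower in all 14 alternatives, CCNF and CDK1 in 12. Over the 60 single genes followed (the 42 and 18 of the further lists), testing without a low-count filter changed no direction or call, and DESeq2 size factors and the DESeq2 test changed 1 call, that of E2F8 (adjusted p = 0.05424 and 0.07687). Scaling by total counts only moved the median log2 fold change of all genes by -0.10 and the genes called higher to 333, and the signs of CCNC (-0.047), CCNK (-0.0175), CDK9 (-0.0468), CDK12 (-0.0441), CDK13 (-0.095, and -0.0117 with upper-quartile factors) and CDK5 (-0.0193) turned, and RBL1 was not called (-0.99, adjusted p = 0.07927). CCNC was -0.024 with limma-voom and -0.0253 with the replicate block, and CCNY 0.0019 with a minimum mean of 1 CPM. Same-numbered libraries deviated together with r of 0.069, 0.259 and 0.029 and not every library correlated best with its own number, so the numbers were not taken as pairs; with the replicate block, 500 genes were lower and 800 higher, and CCNE1 (-0.79, edgeR adjusted p = 0.02982) and SKP2 (-0.80, adjusted p = 0.0162) were called. Leaving out 1 library gave 244 to 662 genes lower and 289 to 891 higher (against 369 and 584 with all 6; 662 and 891 without S-AlgLung replicate 3, 244 and 307 without AlgLung replicate 2, 256 and 289 without AlgLung replicate 1, 295 and 326 without AlgLung replicate 3), 4 to 8 of the 42 genes lower and 0 to 2 higher, 3 to 5 cell-cycle cyclins lower, 0 to 2 transcriptional cyclins higher, and a transcriptional cyclin median of -0.19 to 0.0502. Signs turned without 1 library for CCND3 (-0.0507 to 0.37), CCNE2 (-0.42 to 0.12), CCNC (-0.36 to 0.18), CCNK (-0.008 to 0.16), CCNL1 (-0.0472 to 0.96), CCNL2 (-0.25 to 1.03), CCNT2 (-0.27 to 0.0564), CCNY (-0.23 to 0.14), CDK2 (-0.22 to 0.24), CDK4 (-0.0855 to 0.23), CDK9 (-0.045 to 0.15), CDK12 (-0.0572 to 0.13), CDK13 (-0.17 to 0.16), CDK5 (-0.0712 to 0.29) and CDKN1B (-0.0511 to 0.36); the cause was not tested. The fewest counts were those of E2F8 (67), E2F7 (90) and CDKN1C (98).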
